A study of Arabidopsis thaliana with 42 samples.

Results

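LECRKA4.1 (AT5G01540), LECRKA4.2 (AT5G01550) and LECRKA4.3 (AT5G01560) are 3 neighbouring Arabidopsis genes for L-type lectin receptor kinases. They were taken by locus, as 3 of the 27667 loci in the count table. They had been selected on their rise in counts over the cordycepin times, so every value from the cordycepin libraries is given as a description and carries no test. The study compared Col-0, the wild type, with the genotype labelled rh6812, in 5-day-old seedlings of the Col-0 ecotype. Its title concerns DHH1/DDX6-like RNA helicases and how long messages of stress-response genes last. The 42 libraries formed 14 groups of 3. Of these, 4 groups held poly(A)+ RNA of seedlings with no agent, as total RNA from Col-0, total RNA from rh6812, polysome-bound RNA from Col-0 and polysome-bound RNA from rh6812. The other 10 groups held rRNA-depleted RNA of Col-0 or rh6812 seedlings labelled with cordycepin at 0, 15, 30, 60 and 120 min. The labels name no mutant allele and do not say how polysomes were isolated.

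L-type lectin receptor kinases sit in the plasma membrane, with a legume lectin-like domain outside the cell and a kinase domain inside it. LECRKA4.1, also called LecRK-VI.2, is known as a positive regulator of pattern-triggered immunity and as part of the response to extracellular NAD+, acting with the co-receptor BAK1. LECRKA4.1, LECRKA4.2 and LECRKA4.3 are together known to restrain the abscisic acid response during seed germination. DDX6-like helicases act with decapping factors to repress translation and promote decay of messenger RNA. Cordycepin is an adenosine analogue used to block transcription, so that the loss of existing RNA can be followed. RNA levels after cordycepin are read relative to the other transcripts of the same library. A transcript that is lost more slowly than most thus rises in CPM (counts per 1e+06 counts of the library). A rise in CPM does not by itself show slower loss, and what lay behind the rises given below was not tested.

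In the TAIR10.1 annotation, which is not the TAIR10 build named by the submitters and is used here for gene structure only, the 3 genes lie on the same strand of chromosome 5. They form a block of 10220 bases with 900 bases between LECRKA4.1 and LECRKA4.2 and 1255 bases between LECRKA4.2 and LECRKA4.3. Each gene has 1 exon. The proteins have 682, 706 and 691 residues, and each pair was identical at 72.3% to 74.8% of aligned residues and at 77.5% to 78.2% of aligned coding bases. None of the 50-base windows of the 3 transcripts (2445, 2352 and 3121 windows) occurred elsewhere in that genome, so reads of that length that match exactly could be told apart. An antisense non-coding gene, AT5G01542, covers 98.5% of the exonic bases of LECRKA4.1 and has no row in the count table. Whether the authors counted by strand is not stated, and the LECRKA4.1 counts may hold reads of that antisense gene. LECRKA4.3 shares 70 bases, 2.21% of its exonic bases, with AT5G01570 on the other strand, and LECRKA4.2 overlaps no annotated gene.

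The poly(A)+ libraries held 4611462 to 30654342 counts each and the cordycepin libraries 11463206 to 22251739. The summed green tissue markers ranged from 22205 to 47716 CPM in the poly(A)+ libraries and from 8644 to 15087 CPM in the cordycepin libraries, while the flower markers summed to 0.951 to 3.5 CPM and 0.209 to 1.33 CPM. Mature seed markers, listed as not of a seedling, summed to 0 to 12.4 CPM in the poly(A)+ libraries and 1.26 to 45.4 CPM in the cordycepin libraries. Their means in Col-0 were 10.3 ± 9.04 CPM at 0 min and 11.7 ± 10.4 CPM at 120 min (SD, n = 3). Those in rh6812 were 16.4 ± 16.1 and 25.8 ± 10.3 CPM, and the libraries of the genotypes overlapped at both times. The part of seed RNA in the LECRKA4 values was not tested. In the libraries labelled rh6812, RH8 (AT4G00660) was at 2.84 ± 0.732 CPM in total RNA (SD, n = 3) against 32.7 ± 0.165 CPM in Col-0, and RH12 (AT3G61240) was at 24.4 ± 1.52 against 38.5 ± 1.96 CPM. RH6 (AT2G45810) went the other way, at 132 ± 4.97 CPM in the libraries labelled rh6812 against 54.5 ± 1.96 CPM in Col-0 total RNA, which is against the label if the genotype was meant to lower its RNA. The mutant groups are therefore called the libraries labelled rh6812, or rh6812 for short, in all that follows.

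Over the cordycepin times LECRKA4.2 had the steepest slope of the 3 in Col-0, LECRKA4.1 and LECRKA4.3 had smaller positive slopes, and in the libraries labelled rh6812 all 3 stayed closer to their starting level. LECRKA4.1 and LECRKA4.2 already stood high in rh6812 at 0 min, whereas LECRKA4.3 started at 10.8 ± 0.402 CPM in Col-0 and 9.59 ± 0.442 CPM in rh6812 (SD, n = 3). All levels in this paragraph and the next 3 are CPM with TMM scaling (a scaling that holds the typical transcript constant) within the cordycepin set. The slopes are log2 units per hour from a straight line through the 5 times.

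LECRKA4.2 in Col-0 was at 1.34, 1.47 and 1.83 CPM at 0 min and at 0.775, 0.694 and 1.44 CPM at 15 min. It then reached 1.36, 1.89 and 2.33 CPM at 30 min, 5.24, 3.73 and 5.75 CPM at 60 min and 9.62, 12 and 12.6 CPM at 120 min. The 15 min mean was the lowest of the series, and the 60 and 120 min libraries all lay above every earlier library. The counts behind the low point were small, at 16, 11 and 29 reads. Against 0 min, the level was 0.635 times as high at 15 min (log2 -0.66 ± 0.33, SE), 3.14 times as high at 60 min and 7.3 times as high at 120 min (log2 2.87 ± 0.25). The Col-0 slope was 1.66 ± 0.13, the highest among the 40 L-type lectin receptor kinase genes fitted and rank 23 among 21486 genes. The 3 replicate numbers gave slopes of 1.77, 1.83 and 1.59. In rh6812, LECRKA4.2 was at 10.5, 13.3 and 13.3 CPM at 0 min, 11.7, 10.1 and 8.06 CPM at 15 min, 11.7, 11.4 and 8.71 CPM at 30 min, 9.57, 14.2 and 8.35 CPM at 60 min and 12.5, 18.2 and 15.3 CPM at 120 min. These libraries overlapped across the first 4 times, and those of 120 min overlapped the 0 and 60 min libraries. The slope was 0.21 ± 0.11. With the 120 min libraries left out, that slope was -0.14, so its sign rests on the last time.

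The genotype gap in LECRKA4.2 was smaller at the later times. At 0 min the rh6812 level was 7.92 times the Col-0 level, at 15 min 10 times, at 30 min 5.72 times, at 60 min 2.19 times and at 120 min 1.34 times. The libraries of the genotypes did not overlap at the first 4 times and overlapped narrowly at 120 min. There the highest Col-0 library, at 12.6 CPM, lay just above the lowest rh6812 library, at 12.5 CPM. The slope difference, rh6812 minus Col-0, was -1.45 ± 0.18, the lowest among the 40 family genes.

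LECRKA4.1 in Col-0 was at 12.1, 6.28 and 18.4 CPM at 0 min, a wide spread. It was at 12.3, 11.8 and 20.9 CPM at 15 min, 16.8, 14.2 and 24.4 CPM at 30 min, 21.2, 14.5 and 28.3 CPM at 60 min and 31.1, 29.8 and 33.5 CPM at 120 min. Neighbouring times overlapped up to 60 min, and the 120 min libraries all lay above every earlier library. The Col-0 library of replicate 3 was the highest at each of the 5 times and that of replicate 2 the lowest. The level at 120 min was 2.56 times the 0 min level (log2 1.35 ± 0.34), and the slope was 0.64 ± 0.13, rank 873 among all genes fitted. Replicate numbers gave 0.71, 0.94 and 0.42. In rh6812 it was at 58.1, 42 and 52.9 CPM at 0 min, with group means of 54.2 ± 15.5, 52.2 ± 14.8, 46.4 ± 12.7 and 53.3 ± 11.5 CPM (SD, n = 3) at 15, 30, 60 and 120 min. Those groups all overlapped each other, and the slope was -0.01 ± 0.13, with 1 positive and 2 negative slopes by replicate number (-0.22, 0.33 and -0.12). At 0 min the rh6812 level was 4.15 times the Col-0 level and at 120 min 1.69 times, and the libraries of the genotypes overlapped at none of the 5 times.

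LECRKA4.3 in Col-0 was at 10.8, 10.4 and 11.2 CPM at 0 min, 9.98, 9.15 and 11.5 CPM at 15 min, 14.6, 12.8 and 14.9 CPM at 30 min, 22.1, 19.4 and 23.2 CPM at 60 min and 25.7, 25.2 and 25.4 CPM at 120 min. The 0 and 15 min libraries overlapped, and from 30 min on each time lay above the one before. The 120 min level was 2.35 times the 0 min level (log2 1.23 ± 0.11), and the slope was 0.69 ± 0.07, rank 746. In rh6812 it was at 9.98, 9.11 and 9.69 CPM at 0 min and at 12.2, 14.4 and 12.9 CPM at 120 min, and the 60 min libraries overlapped those at 120 min. The rh6812 slope was 0.27 ± 0.07, and the slope difference was -0.42 ± 0.10. Here the genotype gap was wider at the later times, from 0.887 times the Col-0 level at 0 min to 0.683 at 30 min, 0.561 at 60 min and 0.516 at 120 min. The libraries of the genotypes overlapped only at 15 min among these 5 times. At 120 min, then, the genotypes overlapped narrowly in LECRKA4.2 and were at their farthest apart in LECRKA4.3. The LECRKA4.2 means at that time were 11.4 ± 1.56 CPM in Col-0 and 15.3 ± 2.89 CPM in rh6812 (SD, n = 3). Over the same times the summed root markers (4 genes) had means of 20.9 ± 1.94 CPM at 0 min and 18.7 ± 0.175 CPM at 120 min in Col-0, and of 15.9 ± 1.02 and 9.27 ± 0.473 CPM in rh6812 (SD, n = 3). Their part in these patterns was not tested.

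**Figure D1:**
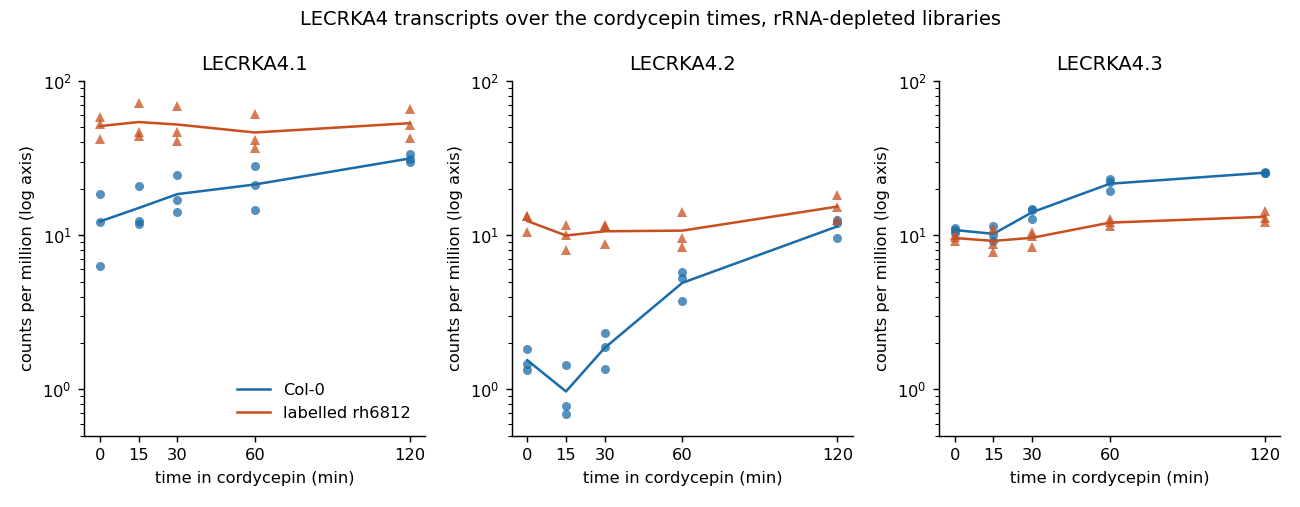
Level of each LECRKA4 gene in CPM (log axis) against time in cordycepin in minutes, with 1 point per library (circles for Col-0, triangles for the libraries labelled rh6812) and lines through the means of 3 libraries. Col-0 LECRKA4.2 runs from 1.55 CPM at 0 min to 11.4 CPM at 120 min. Its highest 120 min library, at 12.6 CPM, lies just above the lowest rh6812 library, at 12.5 CPM. LECRKA4.3 is at 0.887 times the Col-0 level in rh6812 at 0 min and at 0.516 times at 120 min.

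Across the family, 29 of 40 fitted L-type lectin receptor kinase genes had a slope above 0 in Col-0, with a median of 0.48, against 48.5% of all 21486 genes with a median of -0.01. Without the LECRKA4 genes, which were picked on these slopes, it was 26 of 37, with a median of 0.37. In rh6812, 24 of the 40 were above 0, with a median of 0.10 (22 of 37 and 0.09 without the LECRKA4 genes), against 49.9% of all genes. The slope was larger in rh6812 than in Col-0 in 9 of the 40, none of them a LECRKA4 gene, against 49.7% of all genes. After LECRKA4.2, the steepest Col-0 slopes in the family belonged to AT5G65600 at 1.53 ± 0.12 and AT4G28350 at 1.48 ± 0.16, so LECRKA4.2 was not alone at that end. Among the LECRKA4 genes, LECRKA4.3 was 12th and LECRKA4.1 15th in Col-0. AT3G08870, the remaining gene of the same clade (VI) outside the block, went from 0.557 ± 0.128 to 3.18 ± 0.115 CPM in Col-0 between 0 and 120 min and from 8.34 ± 1.28 to 11.7 ± 2.44 CPM in rh6812. Its Col-0 slope was 0.90 ± 0.16 and its rh6812 slope 0.27 ± 0.11.

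**Figure D2:**
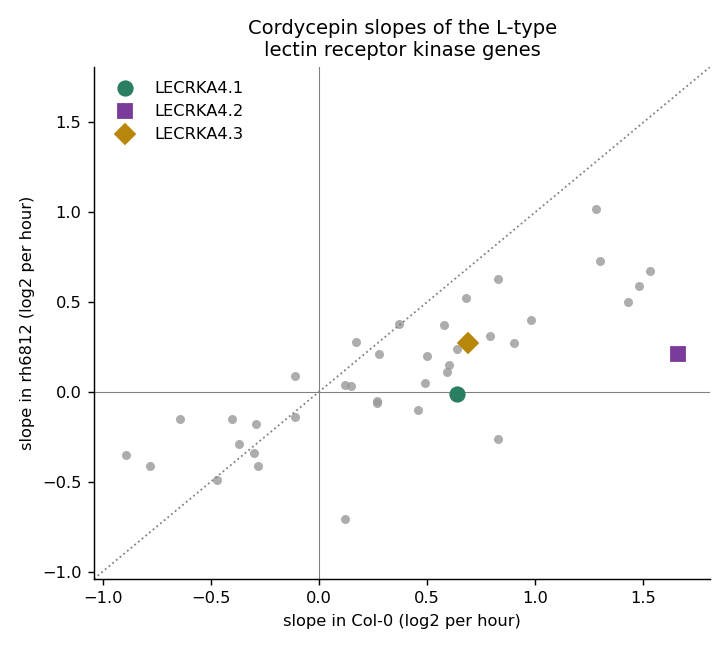
Slope over the cordycepin times in the libraries labelled rh6812 against the slope in Col-0, both in log2 per hour, with 1 point for each of 40 L-type lectin receptor kinase genes, the LECRKA4 genes in colour and the line of equal slopes dotted. LECRKA4.2 lies at 1.66 in Col-0 and 0.21 in rh6812, the point farthest below the dotted line.

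The loci on either side of the block differed in their Col-0 slopes. RUS5 (AT5G01510), AIRP2 (AT5G01520), a RING ubiquitin ligase of abscisic acid signalling, and LHCB4.1 (AT5G01530), a photosystem II antenna protein, had Col-0 slopes of -0.39 ± 0.10, -0.02 ± 0.14 and 0.14 ± 0.05. AT5G01570, on the other strand next to LECRKA4.3, had a Col-0 slope of 0.78 ± 0.21 and went from 0.359 ± 0.0467 CPM at 0 min to 2.19 ± 0.295 CPM at 120 min. Summed over the 3 Col-0 libraries, it had 22 counts at 0 min beside 660 for LECRKA4.3, and 106 beside 1231 at 120 min. The part of the 70 shared bases in the LECRKA4.3 counts was not tested. OSH1 (AT5G01580) had a Col-0 slope of 0.62 ± 0.19. In total poly(A)+ RNA RUS5 was lower in rh6812 (log2 -0.82 ± 0.20, edgeR adjusted p = 7e-04). AIRP2 (-1.23 ± 0.14, adjusted p = 6.6e-09) and LHCB4.1 (-1.05 ± 0.10, adjusted p = 3.1e-10) were lower by the same test. Of all genes, 32.4% were called lower there, and AT5G01570 and OSH1 were not called. The rh6812 slopes of RUS5, AIRP2 and LHCB4.1 were -0.21 ± 0.11, -0.25 ± 0.14 and 0.06 ± 0.05. Those of AT5G01570 and OSH1 were 0.38 ± 0.25 and 0.55 ± 0.24. AT5G00780, a non-coding locus between those last loci, has no row in the count table.

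The genotype difference was tested in the poly(A)+ libraries, whose values the rise over the cordycepin times does not use, although the genes were picked with earlier results of the whole series known. In total poly(A)+ RNA LECRKA4.1 and LECRKA4.2 were higher in the libraries labelled rh6812 and LECRKA4.3 was lower. LECRKA4.1 was at 5.66, 4.65 and 7.13 CPM in Col-0 and at 9.44, 10.2 and 13.1 CPM in rh6812. All 3 rh6812 libraries lay above all 3 Col-0 libraries. The difference was 1.94-fold (log2 0.95 ± 0.16, SE, edgeR quasi-likelihood adjusted p = 3.7e-06). LECRKA4.2 was at 3.48, 2.64 and 3.72 CPM in Col-0 and at 6.95, 7.09 and 7.45 CPM in rh6812, again with no overlap. Its log2 difference was 1.15 ± 0.22 (edgeR adjusted p = 5.1e-05). LECRKA4.3 was at 13.5, 11.6 and 13.4 CPM in Col-0 and at 9.13, 9.62 and 8.9 CPM in rh6812, so that all rh6812 libraries lay below those of Col-0. Its log2 difference was -0.47 ± 0.14 (edgeR adjusted p = 0.0038). Against this count of 2 of 3 higher and 1 of 3 lower, 32.2% of the 20949 genes tested were called higher and 32.4% lower, so a call by itself was common. The 4 root markers were all called in this comparison as well, with PRP3 (log2 1.44) and NRT2:1 (2.08) higher in rh6812 and SHV2 (-0.50) and PIP2;4 (-0.87) lower, and their sums were 73.7 to 99.2 CPM in Col-0 and 60.6 to 83.6 CPM in rh6812. Their part in the result was not tested. In whole seedlings, fewer cells that express a gene and less RNA per cell cannot be told apart.

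In polysome-bound RNA, 2 of the 3 genes were higher in rh6812 and none was lower (0 of 3 lower also at an unadjusted p under 0.05 and by DESeq2), where 30.2% of all genes were called higher and 33.3% lower. LECRKA4.2 was at 1.69, 2.79 and 1.1 CPM in Col-0 and at 4.87, 8.75 and 9.24 CPM in rh6812. No library overlapped, and the log2 difference was 2.04 ± 0.27 (edgeR adjusted p = 2e-07). LECRKA4.1 was at 6.25, 7.5 and 7.61 CPM in Col-0 and at 13.1, 14.8 and 12.2 CPM in rh6812, also without overlap. Its log2 difference was 0.91 ± 0.17 (edgeR adjusted p = 1.8e-05). LECRKA4.3 was at 7.73, 7.4 and 7.09 CPM in Col-0 and at 6.35, 5.83 and 9.96 CPM in rh6812. The Col-0 values lay within the range of the rh6812 values, and the log2 difference was -0.01 ± 0.17 (95% interval -0.35 to 0.33, edgeR adjusted p = 0.97). The summed root markers were at 2.52 to 5.59 CPM in polysome-bound RNA of rh6812 and at 15.9 to 18.5 CPM in that of Col-0, with 1 of the 4 markers, PIP2;4, called lower. Their part in these differences was not tested.

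**Figure D3:**
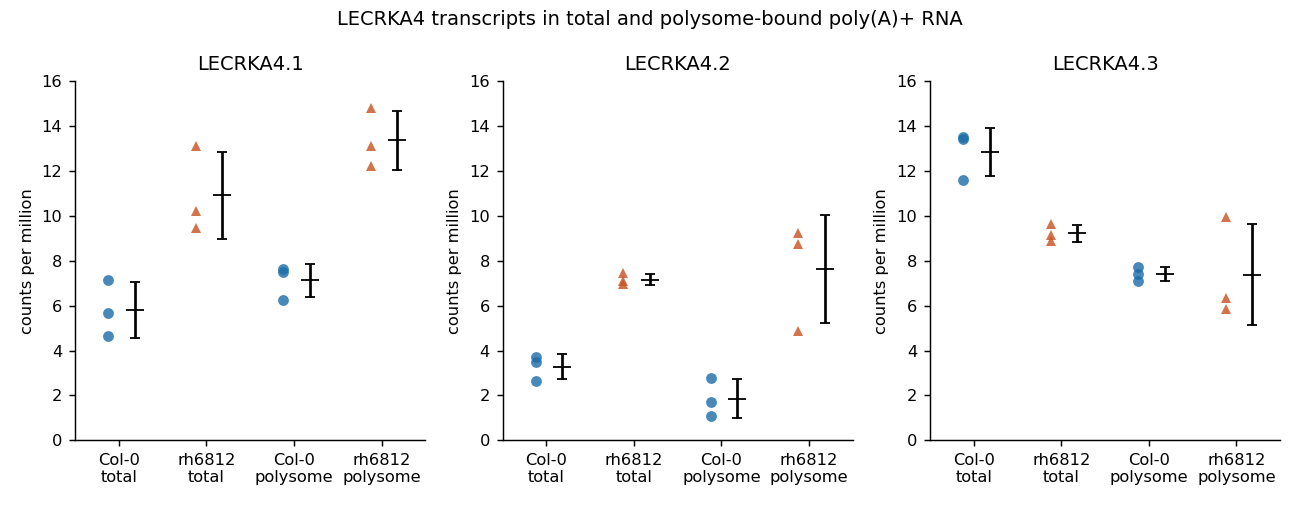
Level of each LECRKA4 gene in CPM in the 4 poly(A)+ groups, with 1 point per library and the mean ± SD of 3 libraries in black beside it. LECRKA4.1 and LECRKA4.2 are higher in the libraries labelled rh6812 in both kinds of RNA, while LECRKA4.3 is lower in total RNA and overlaps in polysome-bound RNA.

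In the rRNA-depleted libraries at 0 min the fitted genotype difference was 4.15-fold for LECRKA4.1, beside 1.94-fold in total poly(A)+ RNA. For LECRKA4.2 the log2 values were 2.99 ± 0.25 and 1.15 ± 0.22. For LECRKA4.3 the log2 values were -0.17 ± 0.12 and -0.47 ± 0.14. The libraries differ in RNA selection and in the agent named on the labels, and the gaps between these values were not tested.

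**Figure D4:**
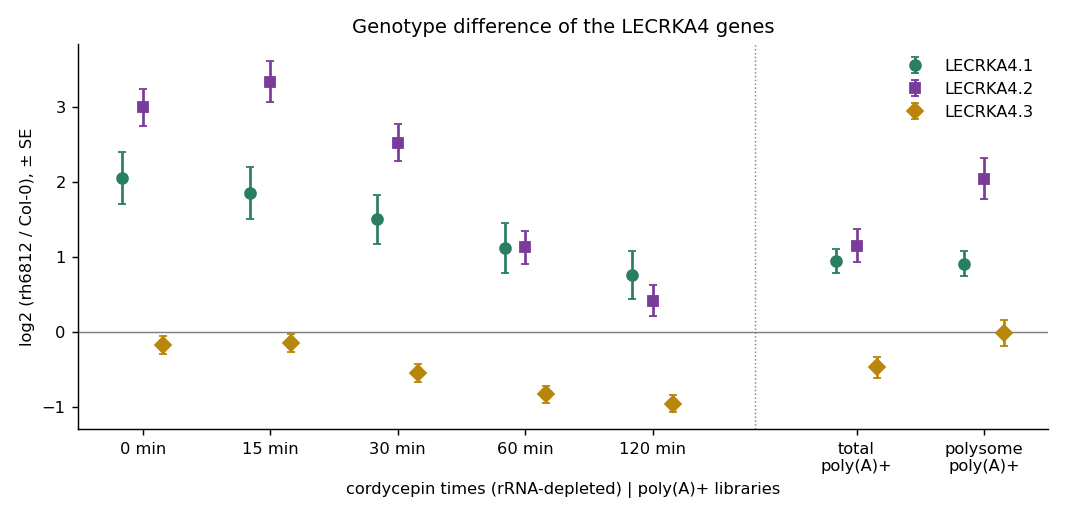
Log2 of the level in the libraries labelled rh6812 over Col-0 (± SE) for each LECRKA4 gene, at the 5 cordycepin times in rRNA-depleted RNA (left of the dotted line) and in total and polysome-bound poly(A)+ RNA (right). LECRKA4.2 is at 2.99 at 0 min and 0.42 at 120 min, LECRKA4.1 at 2.05 and 0.76, and LECRKA4.3 at -0.17 and -0.95.

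Polysome-bound RNA was set against total RNA within each genotype. In Col-0, LECRKA4.2 and LECRKA4.3 were lower in the polysome-bound libraries than in the total libraries and LECRKA4.1 was not called. LECRKA4.3 had a log2 difference of -0.78 ± 0.14 (edgeR adjusted p = 2.7e-05), with means of 7.41 ± 0.32 CPM in polysome-bound RNA and 12.8 ± 1.09 CPM in total RNA (SD, n = 3). LECRKA4.2 had a log2 difference of -0.91 ± 0.27 (edgeR adjusted p = 0.0051), with 1.86 ± 0.858 and 3.28 ± 0.572 CPM. LECRKA4.1 had 0.31 ± 0.16 (95% interval -0.03 to 0.64, edgeR adjusted p = 0.11), and 0.44 (adjusted p = 0.03) without Col-0 total replicate 3. Without 1 library at a time it ran from 0.16 to 0.44. Of all genes, 30.7% were called higher in polysome-bound RNA in Col-0 and 27.0% lower. None of the 3 was called higher there, nor at an unadjusted p under 0.05, nor by DESeq2.

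In rh6812, none of the 3 was called in either direction by edgeR, by DESeq2 or at an unadjusted p under 0.05, where 26.0% of all genes were called higher and 27.2% lower. The log2 differences were 0.26 ± 0.16 for LECRKA4.1 (95% interval -0.06 to 0.58), -0.02 ± 0.23 for LECRKA4.2 (-0.48 to 0.45) and -0.32 ± 0.16 for LECRKA4.3 (-0.65 to 0.01). The LECRKA4.1 value was 0.42 (edgeR adjusted p = 0.042) without rh6812 total replicate 3. The LECRKA4.3 value was -0.55 (edgeR adjusted p = 0.0077) without rh6812 polysome replicate 3. Without 1 library at a time LECRKA4.1 ran from 0.21 to 0.42 and LECRKA4.3 from -0.55 to -0.10. The sums of root markers were 15.9 to 18.5 CPM in polysome-bound and 73.7 to 99.2 CPM in total RNA of Col-0, and 2.52 to 5.59 and 60.6 to 83.6 CPM in rh6812. All 4 root markers were called lower in polysome-bound than in total RNA in both genotypes, with log2 differences from -4.38 to -2.13 in Col-0 and from -5.83 to -3.89 in rh6812. No marker was at 0 in all libraries, and NRT2:1 was at 0 in 1 of the 12. The part of the root share in the polysome to total differences was not tested.

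The difference between the genotypes in the polysome to total ratio was tested directly as an interaction, which 9.76% of all genes passed in either direction. None of the 3 passed by edgeR or by DESeq2, and 2 of 3 had an unadjusted p under 0.05. The 9.76% is the share at the adjusted threshold. The share of all genes at the unadjusted one was not worked out, so the 2 of 3 have no background beside them. LECRKA4.2 had a log2 interaction of 0.89 ± 0.35 (95% interval 0.17 to 1.62, edgeR adjusted p = 0.12), toward a higher ratio in rh6812. It was 1.32 (edgeR adjusted p = 0.011) without rh6812 polysome replicate 1, whose LECRKA4.2 level was the lowest of its group, and 1.14 (adjusted p = 0.038) without Col-0 polysome replicate 2, the highest of its group. Without 1 library at a time it ran from 0.65 to 1.32. LECRKA4.3 had 0.46 ± 0.22 (95% interval 0.02 to 0.91, edgeR adjusted p = 0.2). LECRKA4.1 had -0.04 ± 0.23 (-0.50 to 0.42). Of the 4 root markers 3 were called in this comparison, all toward a lower ratio in rh6812, and their part in these values was not tested.

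To compare the genes with each other, levels were divided by coding length (2049, 2121 and 2076 bases) and are given as CPM per kb, with each gene's share of the sum of the 3. The exonic lengths, 2494, 2401 and 3170 bases, differ more, and which length fits the authors' counting is not known, so shares by exonic length are given where the order of the genes depends on the choice. In Col-0 total RNA LECRKA4.3 led with 6.18 ± 0.524 CPM per kb (SD, n = 3), a share of 58.8 ± 3.2%. LECRKA4.1 followed with 26.7 ± 2.69% and LECRKA4.2 with 14.6 ± 0.786%, and no gene's range of shares met the next. In rh6812 total RNA the shares were 40.3 ± 4.11% for LECRKA4.1, 33.9 ± 3.23% for LECRKA4.3 and 25.7 ± 0.959% for LECRKA4.2. LECRKA4.1 thus stood first in place of LECRKA4.3 in all 3 rh6812 libraries. Its shares were 37.5%, 38.4% and 45%, against 35.8%, 35.8% and 30.2% for LECRKA4.3. The part of reads from the antisense gene AT5G01542 in the LECRKA4.1 shares, here and below, was not tested. By exonic length LECRKA4.1 was again first, with 42.4 ± 4.05%, but LECRKA4.2 (29.1 ± 1.24%) and LECRKA4.3 (28.5 ± 2.87%) overlapped. The log2 ratio of LECRKA4.1 to LECRKA4.3 was -1.14 ± 0.22 in Col-0 and 0.25 ± 0.28 in rh6812 total RNA (exact two-sided permutation test, p = 0.1). That is the smallest p that 3 against 3 libraries allow. All 4 such ratio comparisons, of LECRKA4.1 or LECRKA4.2 over LECRKA4.3 in total or polysome-bound RNA, gave it. In total RNA this p follows from the lack of overlap already given for each gene. The 4 comparisons also share LECRKA4.3, so they add no separate support. The choice of length shifts such a ratio by the same amount in both genotypes. In polysome-bound RNA of Col-0, LECRKA4.1 and LECRKA4.3 had overlapping shares of 43.9 ± 4.24% and 45.2 ± 3.77%, and in rh6812 LECRKA4.2 and LECRKA4.3 did, with 25.8 ± 5.43% and 25.9 ± 5.94%. By exonic length LECRKA4.1 led in polysome-bound RNA of Col-0 without overlap, at 47.9 ± 4.61% against 39.3 ± 3.67% for LECRKA4.3.

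In the cordycepin set, at 0 min, LECRKA4.1 made up 48 ± 12.1% in Col-0, which overlapped the 45.7 ± 10.9% of LECRKA4.3, and 70.1 ± 4.35% in rh6812. The share of LECRKA4.2 in Col-0 went from 6.31 ± 1.36% at 0 min to 3.51 ± 0.549% at 15 min and 16.3 ± 1.86% at 120 min, when it lay within the spread of its rh6812 share of 18.4 ± 2.59%. LECRKA4.3 made up 37.2 ± 1.61% in Col-0 and 16.2 ± 1.76% in rh6812 at 120 min.

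**Figure D5:**
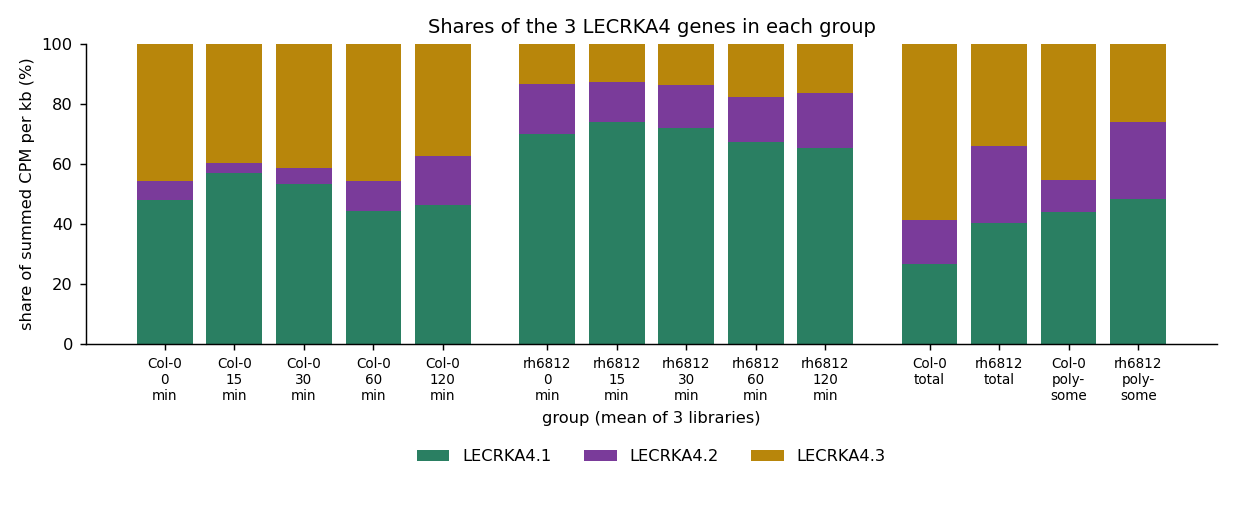
Mean share in percent of each LECRKA4 gene in the summed CPM per kb of coding sequence, for each of the 14 groups (3 libraries each), with cordycepin times of Col-0 and rh6812 at the left and centre and the poly(A)+ groups at the right. The LECRKA4.1 share at 0 min is 48% in Col-0 and 70.1% in the libraries labelled rh6812, and LECRKA4.3 has the largest share, 58.8%, in Col-0 total RNA.

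Over the 14 group means of log2 CPM, centred within each set of libraries, LECRKA4.1 and LECRKA4.2 had a Pearson correlation of 0.91. LECRKA4.3 had -0.26 with LECRKA4.1 and 0.07 with LECRKA4.2. These are descriptions over 14 points that share libraries and scaling. By the same measure, among 17621 genes, the genes most like LECRKA4.1 were AT1G26420 (0.985), AT4G38560 (0.984), RK3 (AT4G21380, 0.983), an S-domain receptor kinase, PDIL2-2 (AT1G04980, 0.981), a protein disulfide isomerase-like protein, and AT5G25260 (0.980). RK3 was at 1.83 ± 0.59 CPM in Col-0 and 12.8 ± 1.62 CPM in rh6812 at 0 min, and at 4.78 ± 0.351 and 13.3 ± 2.61 CPM at 120 min. Those most like LECRKA4.2 were WNK4 (AT5G58350, 0.979), a kinase, LHT1 (AT5G40780, 0.977), an amino acid transporter, CNGC3 (AT2G46430, 0.976), a cyclic nucleotide-gated channel, P4H2 (AT3G06300, 0.974), a prolyl hydroxylase, and AT5G07330 (0.959). WNK4 moved over a narrower range, from 12.9 ± 1.19 to 21.3 ± 2.81 CPM in Col-0 between 0 and 120 min and from 21.4 ± 1.87 to 26.5 ± 4.54 CPM in rh6812. Those most like LECRKA4.3 were AT3G12040 (0.939), SPHK2 (AT4G21534, 0.937), a sphingosine kinase, AT1G07520 (0.936), TEJ (AT2G31870, 0.932), a poly(ADP-ribose) glycohydrolase, and PAPS2 (AT2G25850, 0.924), a poly(A) polymerase. AT3G12040 stood at 1.54 ± 0.159 CPM in Col-0 and 0.953 ± 0.247 CPM in rh6812 at 0 min.

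Among the 45 L-type lectin receptor kinase genes listed, 36 could be tested in poly(A)+ RNA. In total RNA 11 were higher in rh6812 and 12 lower, with a median log2 difference of -0.17 against -0.03 for all genes. These edgeR counts are close to the shares of all genes called, 32.2% higher and 32.4% lower. By DESeq2 they were 11 higher and 8 lower. Without 1 library at a time the edgeR counts ran from 8 to 12 higher and from 8 to 13 lower. Without the LECRKA4 genes the edgeR counts were 9 and 11 of 33. AT3G08870 was higher in total RNA (log2 2.05 ± 0.33, edgeR adjusted p = 2.4e-06) and in polysome-bound RNA (2.13 ± 0.32, edgeR adjusted p = 1.1e-06), like LECRKA4.1 and LECRKA4.2. AT5G65600 was also higher (2.07 ± 0.31, adjusted p = 6.9e-07). AT3G53380 (-1.20 ± 0.13, adjusted p = 1.1e-09) and AT3G45430 (-2.55 ± 0.30, adjusted p = 1.6e-08) were lower by the same edgeR test. In polysome-bound RNA 12 of the 36 were higher and 6 lower, with a median of 0.19 against -0.05, where 30.2% of all genes were called higher and 33.3% lower.

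In Col-0, 20 of the 36 family genes were lower in polysome-bound than in total RNA and 0 were higher (0 also at an unadjusted p under 0.05 and by DESeq2), with a median of -0.78 against 0.04 for all genes, of which 27.0% were called lower and 30.7% higher. The count higher was 1 without Col-0 total replicate 3 or Col-0 polysome replicate 3. AT3G45420 had the smallest p, with a log2 difference of -2.87 ± 0.29 (edgeR adjusted p = 8.5e-10). In rh6812, 16 were lower and 1 was higher, AT3G08870 (0.66 ± 0.28, edgeR adjusted p = 0.049), and the median was -0.61, where 27.2% of all genes were called lower and 26.0% higher. The 16 became 10 without rh6812 polysome replicate 1, and the 1 became 0 without rh6812 total replicate 1 or 2, without rh6812 polysome replicate 3, and by DESeq2. LECRKA4.2 and LECRKA4.3 were among the 20 in Col-0, and no LECRKA4 gene was among the 16. The 4 root markers moved with these comparisons too, as given above.

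The partners and pathways in which these kinases are known were described in total RNA. Of 16 genes for pattern receptors and their early partners, 5 were higher in rh6812 and 8 lower, with a median log2 difference of -0.31 against -0.03 for all genes, of which 32.2% were called higher and 32.4% lower. The count higher is thus near the background, while the 8 of 16 lower lie above the 32.4% of all genes. The 8 lower became 7 by DESeq2 and ran from 7 to 9 without 1 library at a time. Neither count was tested against the share of all genes. The genes with the smallest p, named next, were all higher. RLP23, a receptor-like protein for a peptide shared by several microbes, was higher (4.34 ± 0.28, edgeR adjusted p = 3.2e-14), as were its partner SOBIR1 (0.97 ± 0.09, adjusted p = 8.2e-11), RBOHD, the NADPH oxidase of the immune oxidative burst (2.04 ± 0.16, adjusted p = 4.1e-09) and the co-receptor SERK4 (0.77 ± 0.10, adjusted p = 4.7e-08). BAK1, the co-receptor known to act with LECRKA4.1, was lower by the same edgeR test, with -0.25 ± 0.10 (adjusted p = 0.023), and was named here for that role. Also among the 8 lower were FLS2 (-2.51 ± 0.22, edgeR adjusted p = 2e-07) and EFR (-0.78 ± 0.15, adjusted p = 3.6e-05). In polysome-bound RNA the counts were again 5 higher and 8 lower, against 30.2% and 33.3% of all genes.

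Of 17 tested genes of abscisic acid signalling, 4 were higher in total RNA of rh6812 and 9 lower, with a median of -0.37 against -0.03 for all genes, of which 32.2% were called higher and 32.4% lower. The kinases SNRK2.2 (-1.26 ± 0.09, edgeR adjusted p = 1e-13) and SNRK2.3 (-1.57 ± 0.14, adjusted p = 6.8e-11) and the receptor RCAR3 (-0.71 ± 0.09, adjusted p = 2.1e-08) were lower, while the phosphatase HAB1, which restrains the pathway, was higher (0.98 ± 0.11, adjusted p = 2.3e-09). The receptors PYL1 (0.74 ± 0.09, adjusted p = 2.4e-08) and PYL4 (0.23 ± 0.09, adjusted p = 0.024) were higher by the same edgeR test. So was the phosphatase PP2CA (0.22 ± 0.10, adjusted p = 0.044), while the phosphatases ABI1, ABI2 and HAB2 were not called. In polysome-bound RNA 4 were higher and 10 lower, against 30.2% and 33.3% of all genes. The 4 higher in total RNA became 2 without Col-0 total replicate 2, rh6812 total replicate 1 or any 1 of the 3 rh6812 polysome libraries, and with scaling by library size alone.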

How the data were processed

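Read counts per gene were used as the authors deposited them, as whole numbers that show no scaling. Poly(A)+ selection (12 libraries) and rRNA depletion (30 libraries) are stated in the labels' protocols. The submitters' processing notes name TopHat2 2.0.14, Bowtie2 2.2.5 and the TAIR10 build. How reads were counted, and whether by strand, is not given in the sources used here. The TAIR10.1 names table matched 27455 of the 27667 loci, and 212 had no value in the poly(A)+ columns.

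The members and lists were chosen with earlier results of these data known. Each set was scaled by TMM and filtered by filterByExpr (minimum count 10, minimum total 15) in R 4.3.3 with edgeR 4.0.16. The 12 poly(A)+ libraries were fitted with 1 mean per group, and 5 contrasts were tested with the robust quasi-likelihood test, two-sided, with Benjamini-Hochberg adjustment over 20949 genes and a threshold of 0.05. The standard error (SE) is the log2 value over the square root of F. The 30 cordycepin libraries were fitted over 21486 genes for levels and slopes, without tests. These main fits held no term for the replicate number. Their SE values therefore treat the libraries as independent, although same-numbered cordycepin libraries often deviated together, as given below. The 2 sets were scaled apart, so levels are not compared between them.

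Named genes were the members, the 3 helicases, 3 loci either side of the block, AT3G08870, the 5 genes most correlated with each member (prior count 2, mean log2 CPM at least 0) and up to 4 per list with the smallest p. Some genes that this rule allows are left unnamed. The steepest family slopes, BAK1, FLS2, EFR and the 4 root markers were named after their values were seen. So were the abscisic acid genes other than SNRK2.2, SNRK2.3, RCAR3 and HAB1. The scripts were tested on simulated counts. Alternatives were DESeq2 1.42.0, its size factors, library size alone, no count filter, a replicate block, times up to 60 min, and each library left out. Shares by exonic length were added after seeing the data.

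Nothing in the labels ties replicates to separate cultures, and the p-values therefore cover only the spread among these libraries, which could be technical. No pair of replicates agreed within counting noise. Same-numbered poly(A)+ libraries deviated together in 9 of 18 pairs (correlation over 0.1). In the Col-0 cordycepin libraries 30 of 30 pairs did, and in those of rh6812 23 of 30. Of the 12 poly(A)+ libraries, 11 correlated best with their own number. The labels state no pairing, so whether the numbers pair the poly(A)+ libraries is not known, and the main fit held no block.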

Additional observations from a re-analysis of the deposited data

How the results depend on the processing

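Calls and directions for LECRKA4.1, LECRKA4.2 and LECRKA4.3 in the genotype comparison of total RNA held under every alternative run, as did those for LECRKA4.1 and LECRKA4.2 in polysome-bound RNA and for LECRKA4.2 and LECRKA4.3 between polysome-bound and total RNA of Col-0. Without 1 library at a time, the log2 values in total RNA ran from 0.79 to 1.08, 1.00 to 1.22 and -0.55 to -0.43 for the 3 genes in order. No count of genes past the threshold moved by over 1.5 times.

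Values near 0 changed sign. LECRKA4.3 in polysome-bound RNA between genotypes was 0.04 with DESeq2's size factors and 0.04 with its Wald test, and ran from -0.24 to 0.21 without 1 library. LECRKA4.2 in polysome-bound against total RNA of rh6812 was 0.03 with the Wald test and ran from -0.23 to 0.37. The interaction of LECRKA4.1 was 0.02 with library size alone and ran from -0.18 to 0.12. None of these was called.

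Some values passed the threshold under an alternative. LECRKA4.3 in polysome-bound against total RNA of rh6812 was -0.48 (edgeR adjusted p = 0.017) with library size alone and ran from -0.55 to -0.10 without 1 library. Leave-one-out values ran from 0.16 to 0.44 for LECRKA4.1 in Col-0, from 0.21 to 0.42 for LECRKA4.1 in rh6812 and from 0.65 to 1.32 for the interaction of LECRKA4.2. The cause of these moves was not tested.

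Among slopes, which carry no test, LECRKA4.2 in Col-0 was 1.48 with library size alone and 2.04 with times up to 60 min, and LECRKA4.3 in Col-0 was 0.51 and 1.11. LECRKA4.2 in rh6812 was -0.14 with times up to 60 min. Without 1 replicate number the Col-0 slope of LECRKA4.3 ran from 0.69 to 0.74. With library size alone the median of all genes was -0.18 in total RNA, -0.14 in polysome-bound RNA, -0.19 and -0.17 between the kinds of RNA in Col-0 and rh6812, and -0.19 and -0.09 for the slopes of Col-0 and rh6812, so values under that scaling are shifted with it.

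The replicate block changed no call. The log2 values with the block were 0.93, 1.12 and -0.47 in total RNA, and the interaction of LECRKA4.2 was 0.89 (edgeR adjusted p = 0.07). In the poly(A)+ set 11 of 12 libraries correlated best with their own number, which is a hint from the data and not the design. Depth limited LECRKA4.2 most, at 11 reads in its lowest library. With exonic in place of coding length, an alternative added after seeing the data, 19 of the 42 shares of the 3 genes moved by over 1 SD.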
